A study of Mus musculus with 28 samples.

Results

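Genes that handle serotonin were followed through the postnatal maturation of the mouse dLGN (dorsal lateral geniculate nucleus), through which retinal signals pass to visual cortex. The 9 genes were Slc6a4, Slc18a2, Maoa, Maob, Htr1a, Htr1b, Htr2a, Htr2c and Htr7, taken by symbol from 26581 genes joined across the deposited tables, and all 9 were found. They were chosen with their levels over these ages already known, so their levels and differences are given as a description. Calls of these genes are counted beside those of all genes, and nothing is read from them.

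RNA came from C57BL/6J mice, males and females, with no genetic change or treatment beyond standard housing. The ages were embryonic day 18 (E18) and, after birth, days 4, 10, 16, 20, 27 and 32 (P4 to P32). Each of the 7 ages had 4 libraries, 28 in all, which the labels describe as independent samples. The nucleus was cut out of vibratome sections, so each library mixes relay neurons, interneurons, retinal and other axons, glia and vessels. Levels are in CPM, the read count scaled to library size, with the 28 libraries scaled together. A library is called by its age and the number 3 to 6 that its column carries. Library totals ran from 8224851 to 40206549 reads, and a count of 3 corresponded to between 0.0723 and 0.392 CPM. Values of 4 libraries are listed in the order 3, 4, 5, 6.

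Serotonin is made by neurons of the brainstem raphe, whose axons reach the thalamus. The serotonin transporter, encoded by Slc6a4, takes released serotonin back into cells, the vesicular transporter encoded by Slc18a2 loads it into vesicles, and the monoamine oxidases encoded by Maoa and Maob break it down. In rodents, glutamatergic thalamic neurons that do not make serotonin carry both transporters for a limited period around birth and can take up and store it. Of the receptors, Htr1a and Htr1b couple to inhibitory G proteins and, in rodents, Htr1b sits on the axon terminals of thalamic neurons. Htr2a and Htr2c couple to phospholipase C, and Htr7 couples to adenylyl cyclase.

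Promoter sequences are shown for the 3 genes that edgeR, as described below, called lower at P16 than at P10 (Slc6a4, Slc18a2 and Htr1b). Htr2c, which it called higher at P10 than at P4, is shown as well. RefSeq windows (GRCm38.p6) matched 8 of the 9 genes, and Maob is named only. Capitals mark matches on either strand to GGGCGG (the GC box) or CTTTGA (the TCF/LEF core). The lines hold the part of the 250 bases before the RefSeq start that also precedes the deposited gene model, 5′ to 3′ on the gene's strand.
Slc6a4, chr11:76998347-76998465, plus strand: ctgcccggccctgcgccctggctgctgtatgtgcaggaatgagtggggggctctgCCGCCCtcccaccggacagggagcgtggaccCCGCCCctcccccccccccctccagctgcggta
Slc18a2, chr19:59260628-59260739, plus strand: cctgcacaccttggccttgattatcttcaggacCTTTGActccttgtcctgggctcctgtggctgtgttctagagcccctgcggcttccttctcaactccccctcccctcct
Htr1b, chr9:81633833-81634082, minus strand: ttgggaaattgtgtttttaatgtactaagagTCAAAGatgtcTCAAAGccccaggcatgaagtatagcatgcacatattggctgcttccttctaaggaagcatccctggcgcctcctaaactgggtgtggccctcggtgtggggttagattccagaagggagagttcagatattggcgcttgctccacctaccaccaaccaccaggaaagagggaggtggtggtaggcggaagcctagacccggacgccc
Htr2c, chrX:146962263-146962512, plus strand: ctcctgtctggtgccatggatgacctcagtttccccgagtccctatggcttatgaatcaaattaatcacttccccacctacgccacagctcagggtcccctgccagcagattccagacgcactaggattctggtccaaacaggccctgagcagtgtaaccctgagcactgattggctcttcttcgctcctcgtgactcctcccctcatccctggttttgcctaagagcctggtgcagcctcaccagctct

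Over the whole 250 bases, GGGCGG was found in the windows of Slc6a4, Slc18a2, Maoa, Htr1a and Htr2a, and in 32.7% of all 32851 mouse windows. CTTTGA was found in the windows of Slc6a4, Slc18a2 and Htr1b, and in 13.8% of all windows. TAATTA (the homeodomain core), which reads the same on both strands, was found in the Htr2a window and in 4.84% of all. TATAAA, held by 12.4% of all windows, was in none of the 8 windows, and Htr2c and Htr7 held none of the 4 motifs. The Htr7 window (chr19:36057361-36057610) lay wholly inside the deposited Htr7 model, so it does not precede the model that was counted. The windows of Slc6a4, Slc18a2 and Htr2a overlapped their models in part. A match describes letters in a window and is not evidence of a bound site. The genes were chosen on their levels, so nothing is read from which of them share a motif.

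Slc6a4 (gene 15567, chr11:76998466-77032345, plus strand in the deposited tables) was present through P10 and near the limit of counting afterwards. At E18 its 4 libraries held 10.8, 6.94, 2.19 and 2.72 CPM. At P4 they held 46.5, 75.0, 4.58 and 35.4 CPM. P4 libraries 3, 4 and 6 lay above every E18 library, while P4 library 5 lay within the E18 range. At P10 the libraries held 14.4, 28.2, 24.1 and 22.8 CPM, a narrower spread. At P16 they held 0, 0.36, 0.0977 and 0.29 CPM, so no P16 library reached the lowest P10 library. The reads behind these levels summed to 749 at E18, 3455 at P4, 1379 at P10 and 14 at P16. From P20 to P32 the gene had 15 reads in all over 12 libraries. Of the 16 libraries from P16 to P32, 7 held no Slc6a4 read.

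The Slc6a4 log2 fold change was 2.83 (SE 0.72) for P4 over E18, with means of 40.4 ± 29.1 and 5.67 ± 4.04 CPM (SD, n = 4 each). It was -0.85 (SE 0.56) for P10 over P4, with means of 22.4 ± 5.79 and 40.4 ± 29.1 CPM. For P16 over P10 it was -6.78 (SE 0.46), a level 110-fold lower at P16. In the later comparisons Slc6a4 had too few reads to enter the fits. The SD in CPM was largest at P4, where the highest library was 16.4 times the lowest. The summed relay neuron markers of P4 library 5, at 3056 CPM, lay within the 2655 to 3178 CPM of the other 3 P4 libraries. The part of the cell mixture in its Slc6a4 level was not tested.

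Slc18a2 (chr19:59260740-59296012, plus strand) was high and level through P10 and lower from P16 on. Its libraries held 142.6, 88.5, 111.9 and 143.7 CPM at E18, and 175.4, 96.1, 82.9 and 123.4 CPM at P4. At P10 they held 132.5, 103.3, 113.5 and 124.5 CPM. At P16 they held 18.4, 11.7, 22.4 and 20.5 CPM. The highest of the 16 libraries from P16 to P32 held 28.8 CPM, below the 82.9 CPM of the lowest of the 12 libraries from E18 to P10. P16 over P10 gave a log2 fold change of -2.71 (SE 0.20), with means of 18.2 ± 4.68 and 118.5 ± 12.7 CPM (SD, n = 4 each). Slc18a2 then averaged 16.4 CPM at P20, 22.0 CPM at P27 and 23.2 CPM at P32. Unlike Slc6a4, it thus kept a measurable level in every later library.

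For Slc6a4 and Slc18a2 the 16 libraries from P16 to P32 all lay below the 12 libraries from E18 to P10. That holds for 2 of the 9 genes and for 2.61% of the 22706 genes with counts in all libraries, and since the genes were chosen on these levels nothing is read from it. Per kilobase of gene model, mean Slc18a2 was 30.9, 30.3 and 30.1 CPM at E18, P4 and P10, and mean Slc6a4 was 1.82, 12.9 and 7.17 CPM at these ages. On this scale Slc18a2 exceeded Slc6a4 at every age.

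**Figure D1:**
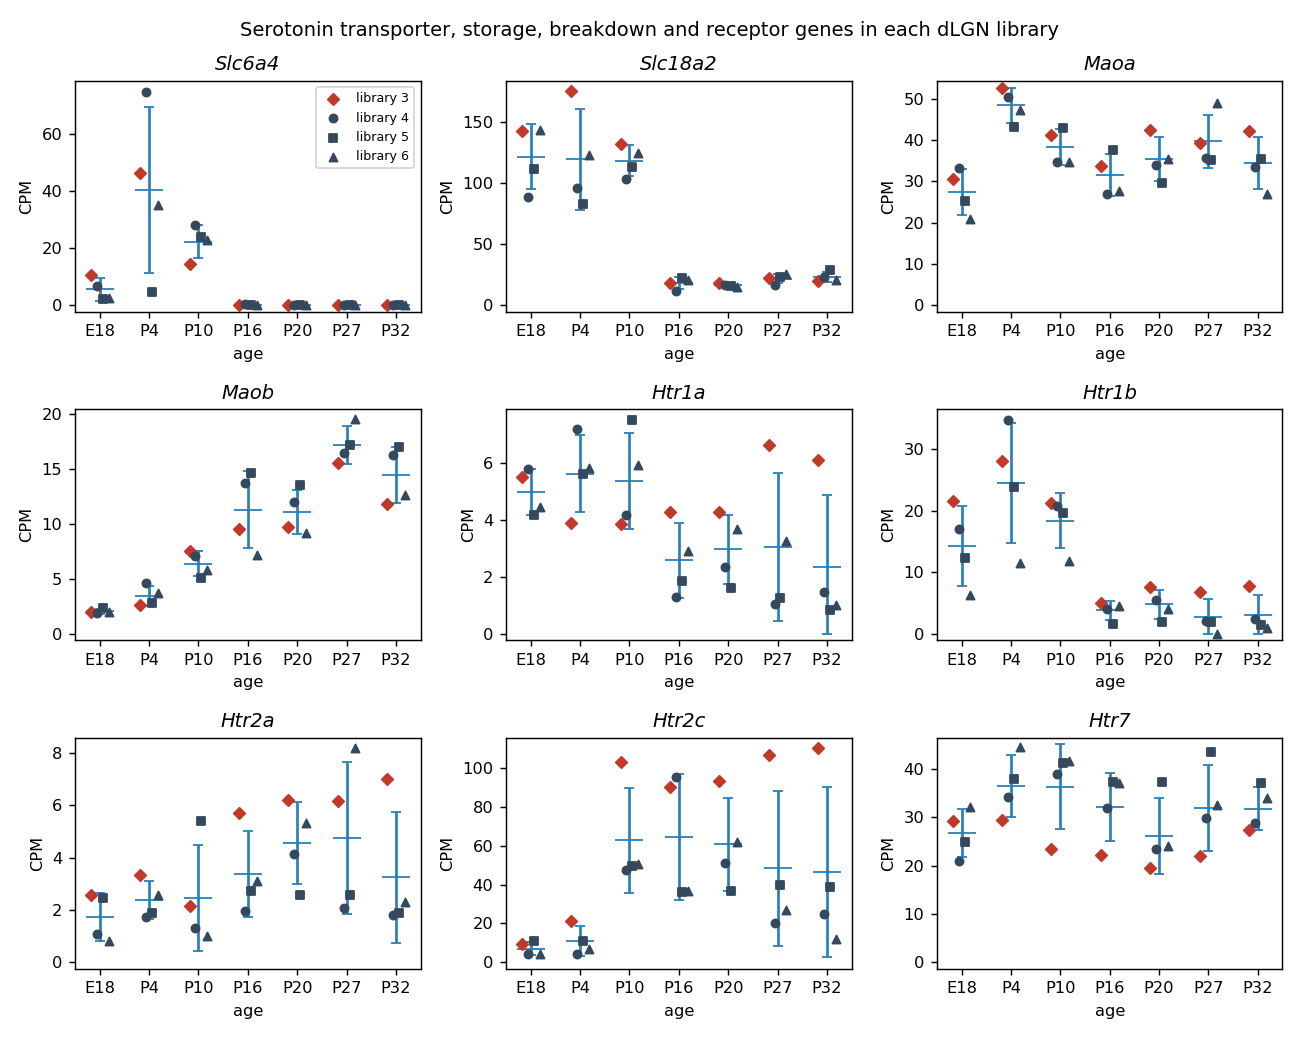
CPM (linear axis) of each of the 9 genes in each library, by age from E18 to P32. Points are libraries (library 3 as red diamonds), the blue dash is the mean and the bar the SD of 4 libraries, cut at 0. Slc6a4 and Slc18a2 drop between P10 and P16, and Htr2c steps up between P4 and P10.

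Bulk libraries cannot tell fewer cells of a type from less RNA per cell. Between P10 and P16 the summed level of 6 oligodendrocyte markers was 18104 to 39089 CPM at P16, against 2079 to 2616 CPM at P10. The summed level of 10 relay neuron markers was 1516 to 4398 CPM at P16, against 2489.5 to 3255 CPM at P10, and these ranges overlapped. The part of these shifts in the serotonin genes' levels was not tested.

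The defining markers of serotonin-making cells were near 0. Tph2, the enzyme that makes serotonin in neurons, averaged 0.309 CPM at E18, 0.231 CPM at P4 and 0.28 CPM at P10, and its highest library held 2.16 CPM. Fev, a raphe transcription factor, never exceeded 0.42 CPM. Gata2 and Gata3, which mark raphe neurons and also inhibitory neurons of the thalamus and midbrain, reached 12.8 and 17.0 CPM. With Lmx1b and En1, the 6 raphe markers summed to between 5.91 and 16.6 CPM at P4 and between 9.82 and 22.4 CPM at P16. Tph1, the enzyme of serotonin-making cells outside the brain, averaged at most 0.806 CPM, at E18. The part of serotonin-making cells in the Slc6a4 and Slc18a2 levels was not tested.

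Other cell types that carry these transporters were checked as well. Mast cells hold Slc18a2 and the histamine enzyme Hdc. Hdc averaged 49.1 ± 6.89 CPM at P10, against 4.72 ± 1.11 CPM at P4 (SD, n = 4 each). The 5 other mast cell markers found summed to 0.207 to 3.11 CPM at E18, 0.301 to 2.83 CPM at P4 and 0 to 0.522 CPM at P10. The 6 platelet markers, a cell that holds Slc6a4, summed to 8.32 to 12.3 CPM at P4 and 9.86 to 15.1 CPM at E18. The platelet sum in P4 library 4, which had the most Slc6a4, was 10.8 CPM. Of the 5 habenula markers, Pou4f1 reached 7.10 CPM, Gpr151 5.44 CPM, Chrnb4 1.06 CPM and Tac2 0.522 CPM. The remaining one, Nwd2, reached 125.7 CPM. The 5 summed to 75.0 to 128.9 CPM at P4, 97.5 to 124.7 CPM at P10 and 16.4 to 26.8 CPM at P16. The sum averaged 100.9 CPM at P4 and 112.3 CPM at P10, of which Nwd2 averaged 98.8 and 108.5 CPM. The part of mast cells, platelets or habenula tissue in the Slc6a4 and Slc18a2 levels was not tested.

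Maoa (chrX:16619698-16687812, plus strand) prefers serotonin among its substrates. It held 30.6, 33.2, 25.3 and 20.8 CPM at E18 and 52.7, 50.5, 43.1 and 47.3 CPM at P4, without overlap. Its log2 fold change for P4 over E18 was 0.80 (SE 0.18), with means of 48.4 ± 4.16 and 27.5 ± 5.54 CPM (SD, n = 4 each). At P10 the libraries held 41.2, 34.7, 42.8 and 34.6 CPM, all below the lowest P4 library, and the log2 fold change for P10 over P4 was -0.33 (SE 0.14). Means from P16 to P32 stayed between 31.5 and 39.7 CPM, so Maoa did not share the drop of the 2 transporters. Maoa is X-linked, and the sexes of the libraries differed between these ages. All 4 P4 libraries held Xist at 763 CPM or more and the Y-linked Ddx3y at 0.121 CPM or less, while all 4 E18 libraries held both Xist and Ddx3y. The part of sex in the Maoa difference was not tested.

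Maob (chrX:16709281-16817366, minus strand), which in the rodent brain is found in astrocytes and serotonergic neurons, climbed slowly. Its means were 2.06, 3.43, 6.37, 11.3, 11.1, 17.2 and 14.5 CPM from E18 to P32. The libraries held 7.53, 7.05, 5.05 and 5.84 CPM at P10, against 2.61, 4.60, 2.77 and 3.72 CPM at P4, without overlap. The log2 fold change was 0.71 (SE 0.27) for P4 over E18, 0.91 (SE 0.26) for P10 over P4 and 0.82 (SE 0.27) for P16 over P10. At P27 the libraries, at 15.6 to 19.5 CPM, again lay above those of P20, at 9.19 to 13.5 CPM, with a log2 fold change of 0.61 (SE 0.19). Ranges were apart in this way, higher at P27 than at P20, for 0.761% of all genes. The 10 astrocyte markers summed to a mean of 381 CPM at E18, 1173 CPM at P4, 3494 CPM at P10 and 5775 CPM at P16, and 4980 CPM at P27. Their part in the Maob levels was not tested.

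Htr1b (chr9:81631392-81632552, minus strand, a gene model of 1161 bases) was the receptor with the clearest drop. Its libraries held 21.5, 17.0, 12.3 and 6.33 CPM at E18 and 28.1, 34.7, 23.8 and 11.6 CPM at P4. At P10 they held 21.3, 20.8, 19.6 and 11.8 CPM, and at P16 4.99, 4.10, 1.66 and 4.51 CPM. Library 6 was the lowest of its age at E18, P4 and P10, and the P16 libraries all lay below the P10 libraries. The log2 fold change was 0.77 (SE 0.39) for P4 over E18, -0.42 (SE 0.31) for P10 over P4 and -2.28 (SE 0.33) for P16 over P10. The last corresponds to a level 4.86-fold lower at P16, with means of 3.82 ± 1.48 and 18.4 ± 4.43 CPM (SD, n = 4 each). P27 library 6 held no Htr1b read, while the other 3 P27 libraries held 6.84, 2.17 and 1.91 CPM, a mean of 3.64 ± 2.78 CPM (SD, n = 3). In that library 16938 genes had a read, against 19117 to 24149 genes in the other 27 libraries, so its 0 may understate the level.

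Htr1a (chr13:105443693-105448133, plus strand) was low throughout. Its means were 4.98, 5.62 and 5.37 CPM at E18, P4 and P10, and 2.59, 2.97, 3.05 and 2.36 CPM from P16 to P32. At P16 the libraries held 4.29, 1.29, 1.86 and 2.90 CPM, against 3.87, 4.18, 7.50 and 5.92 CPM at P10, and the ranges overlapped. P16 over P10 gave a log2 fold change of -1.08 (SE 0.38).

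Htr2c (chrX:146962513-147197277, plus strand) went the other way. It held 9.20, 4.32, 10.7 and 4.14 CPM at E18 and 21.4, 4.21, 11.2 and 6.79 CPM at P4. At P10 it held 103.0, 47.5, 49.7 and 50.7 CPM, so the lowest P10 library exceeded the highest P4 library. P10 over P4 gave a log2 fold change of 2.51 (SE 0.44), with means of 62.7 ± 26.8 and 10.9 ± 7.56 CPM (SD, n = 4 each). It was 0.04 (SE 0.36) for P16 over P10. Means from P16 to P32 lay between 46.5 and 64.6 CPM, with wide spreads. Choroid plexus epithelium is a known site of Htr2c. The 8 choroid plexus markers summed to 20.6 to 32.3 CPM at P10 and 25.0 to 36.2 CPM at P4. They were highest in E18 library 5, at 1021 CPM, where Htr2c was 10.7 CPM. Their part in the Htr2c levels was not tested. Htr2c is X-linked, and P10 libraries 3 and 5 held Xist at 1435 CPM or more while libraries 4 and 6 held it at 9.06 CPM or less. The part of sex in the Htr2c difference was not tested.

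Htr2a (chr14:74640840-74706859, plus strand) reached at most 8.18 CPM in any library, with means of 1.73, 2.37, 2.46, 3.37, 4.56, 4.75 and 3.24 CPM from E18 to P32. Its ranges overlapped between every pair of adjacent ages. The log2 fold change was 0.04 (SE 0.48) for P10 over P4 and 0.43 (SE 0.52) for P16 over P10. Without P10 library 5 these became -0.69 and 1.16. That library held 5.38 CPM of Htr2a, against 0.987 to 2.15 CPM in the other 3 P10 libraries. Its inhibitory neuron markers summed to 734 CPM, against 116 to 154 CPM in the others, and the part of this in its Htr2a level was not tested.

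Htr7 (chr19:35958415-36058285, minus strand) varied least. Its means ran from 26.1 CPM at P20 to 36.5 CPM at P4, the highest being 1.40 times the lowest. The log2 fold change was 0.43 (SE 0.19) for P4 over E18, and between -0.30 and 0.27 in the 5 later comparisons. These differences were of the order of the spread between libraries, whose SD was 4.51 to 8.85 CPM.

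The order of the receptors turned over with age. Per kilobase of gene model, the means at P4 were 21.1 CPM for Htr1b, 8.82 for Htr7, 2.30 for Htr2c, 1.26 for Htr1a and 0.799 for Htr2a. At P16 they were 13.6 CPM for Htr2c, 7.77 for Htr7, 3.29 for Htr1b, 1.13 for Htr2a and 0.582 for Htr1a. Receptor genes outside the 9 fell between these, with Htr5a at 3.94 CPM at P4 and 1.66 at P16, and Htr2b at 1.61 and 1.68. The deposited Htr1b model covers 1161 bases, less than the transcript in current annotation, so its level per kilobase depends on that length.

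**Figure D2:**
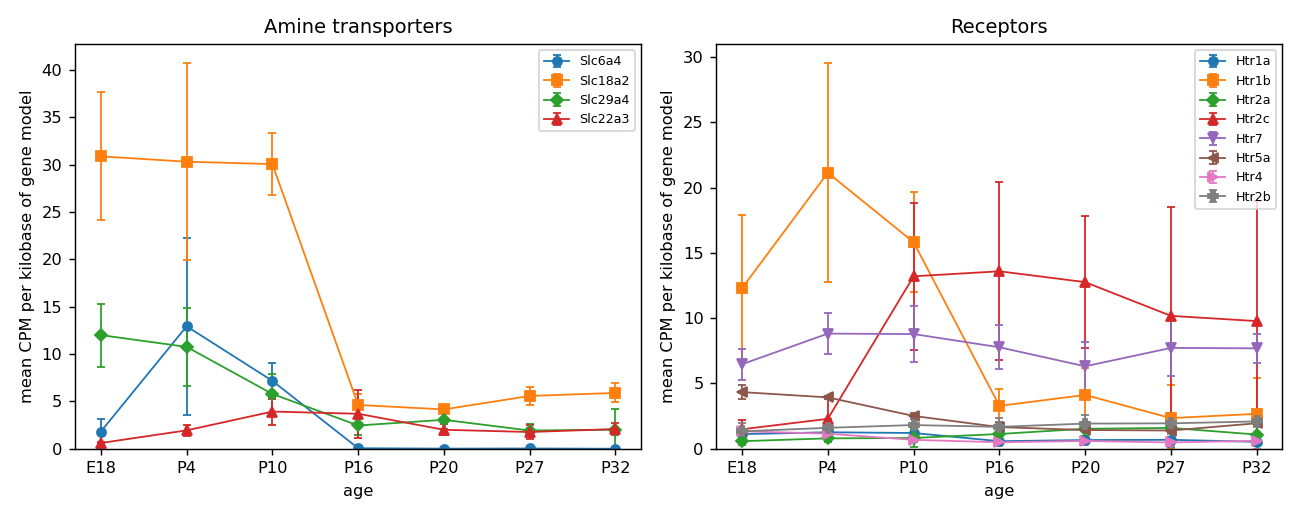
Mean CPM per kilobase of gene model (linear axis) by age, with the SD of 4 libraries as bars, cut at 0. Left, amine transporters, with Slc18a2 at 4.63 at P16 and 30.1 at P10. Right, serotonin receptors, with Htr1b highest at P4 (21.1) and Htr2c highest at P16 (13.6).

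Against all genes, edgeR's quasi-likelihood test with Benjamini-Hochberg adjustment (adjusted p under 0.05) put 2 of the 9 genes higher at P4 than at E18 (Slc6a4 and Maoa), where 4.75% of 18797 tested genes were higher and 3.12% lower. It put 2 higher at P10 than at P4 (Maob and Htr2c), where 10.3% of 17717 genes were higher and 8.16% lower. It put 3 lower at P16 than at P10 (Slc6a4, Slc18a2 and Htr1b), where 5.65% of 17474 genes were lower and 6.2% higher. Ranges that did not overlap were found for 2 genes higher at P4 than at E18 (Maoa and Maob, not Slc6a4), against 6.72% of all genes. At P10 against P4 they were found for 2 higher and 1 lower (Maoa), against 9.42% and 8.93%. At P16 against P10 they were found for 3 lower, against 6.97%. Leaving out 1 library ended 3 of the 7 calls. Slc6a4 at P4 against E18 was lost without E18 library 4, 5 or 6 or P4 library 3, 4 or 6, and Maoa without E18 library 5 or 6 or P4 library 3. Maob at P10 against P4 was lost without P4 library 3, 5 or 6 or P10 library 3, 4 or 6. Since the genes were chosen on these levels, nothing is read from these counts. The median log2 fold change of the 9 genes was 0.60, -0.0035 and -0.29 in these comparisons, beside -0.02, -0.01 and 0.01 over all genes.

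The column number was taken, from these data and not from the labels, as pairing the libraries at these ages. With it as a block, 4 of the 9 were higher at P4 than at E18 (Htr1b and Htr7 as well), where 15.8% of all genes were. At P10 against P4 the block put 2 higher and Maoa lower, where 18% of all genes were higher and 18.1% lower. From P16 on, edgeR called none of the 8 genes tested and 0% of all genes at P20 against P16, P27 against P20 and P32 against P27. At an unadjusted p under 0.05, 485 of 17949, 476 of 18070 and 73 of 17856 genes passed in these comparisons, and 0, 1 (Maob) and 0 of the 8. The absence of a call does not show that a level was stable. DESeq2 called 5 genes higher and 2 lower at P27 than at P20, and none of the 9.

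**Figure D3:**
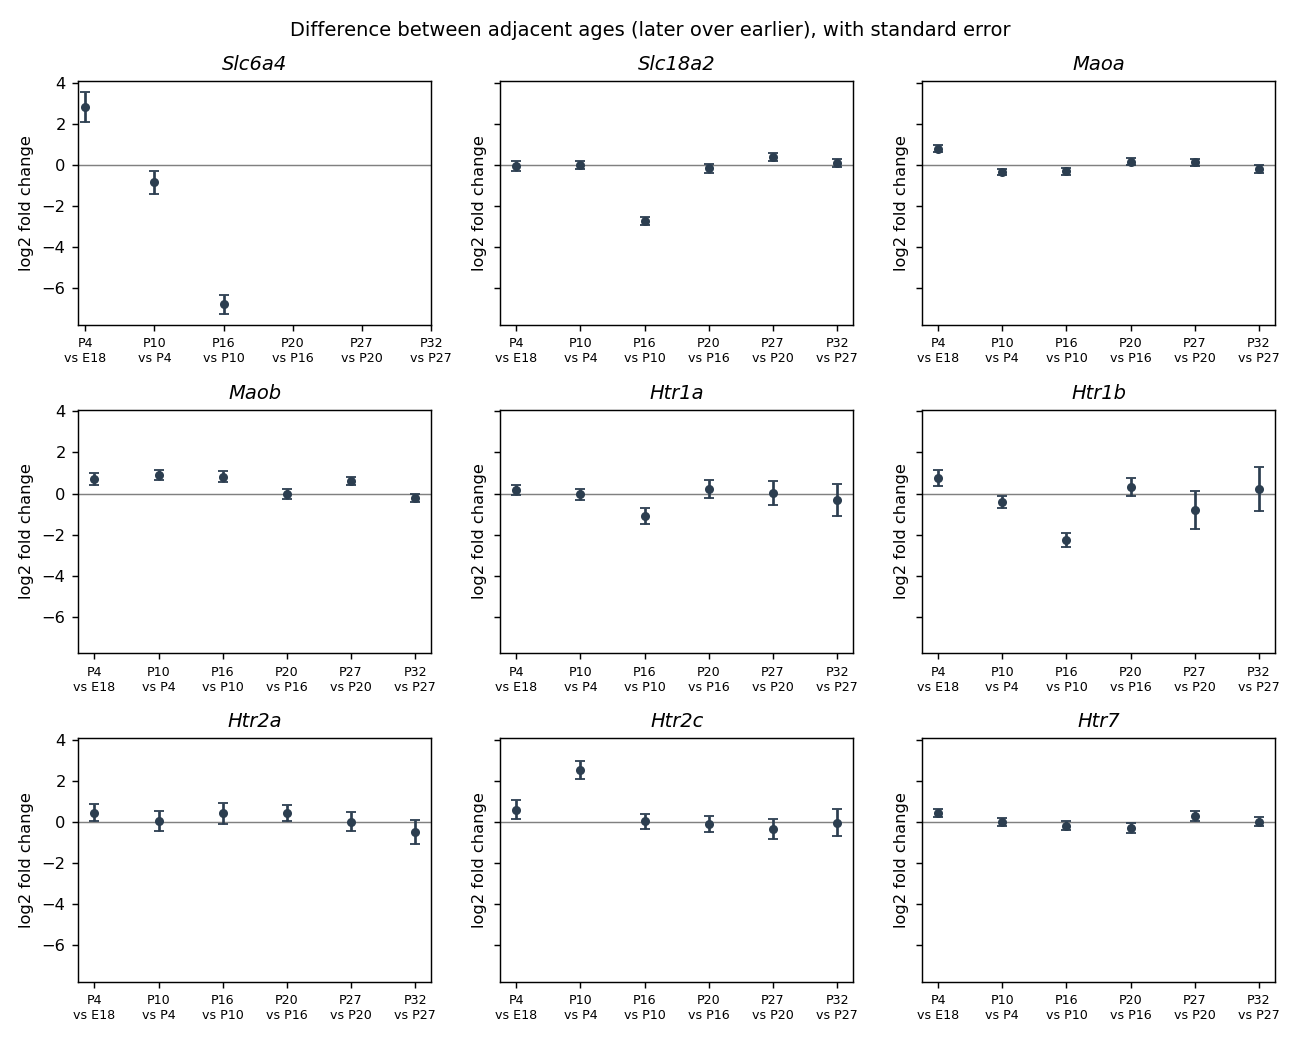
Log2 fold change, later over earlier age, of each gene in the 6 comparisons of adjacent ages, with its SE as the bar. Slc6a4 is at -6.78 at P16 against P10 and is not shown later, where it was not fitted. From P20 on the points lie between -0.81 (Htr1b, P27 over P20) and 0.61 (Maob, P27 over P20).

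Among the libraries from P16 to P32, library 3 stood apart at each age. It had the least Slc17a6, the vesicular glutamate transporter of relay neurons, at 83.0 to 199.7 CPM, against 208.8 to 782.9 CPM in the other 12. It had the most Gad2, an enzyme of GABA synthesis, at 396.6 to 877.6 CPM, against 55.4 to 364.7 CPM in the other 12. The 8 inhibitory neuron markers summed to 840 to 2373 CPM in library 3 and to 192 to 792 CPM in the others. The 10 relay neuron markers summed to 1145 to 1934 CPM in library 3 and to 2061 to 5077 CPM in the others.

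Receptor genes were high in the same libraries. Htr1a ran from 4.26 to 6.65 CPM in library 3 and from 0.828 to 3.68 CPM in the other 12. Htr1b ran from 4.99 to 7.74 CPM in library 3 and from 0 to 5.52 CPM in the others. Library 3 was the highest of its age for Htr1a and Htr1b at all 4 ages, and for Htr2a and Htr2c at 3 of 4. The exceptions were P27 library 6 for Htr2a, at 8.18 CPM, and P16 library 4 for Htr2c, at 95.3 CPM. How often library 3 was the highest over all genes was not counted, so nothing particular to these receptors is read from this. The libraries numbered 3 also deviated together between adjacent late ages (r 0.71, 0.67 and 0.59), so the 4 ages are not separate cases. Htr2c ran from 89.9 to 110.0 CPM in library 3, against a median of 36.7 CPM in the others. Htr7 went the other way, and library 3 was the lowest of its age for Htr7 at all 4 ages, at 19.5 to 27.3 CPM. Slc18a2, at 18.4 to 22.1 CPM in library 3 and 11.7 to 28.8 CPM in the others, did not separate them. Whether the mixture of cells set these receptor levels was not tested.

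**Figure D4:**
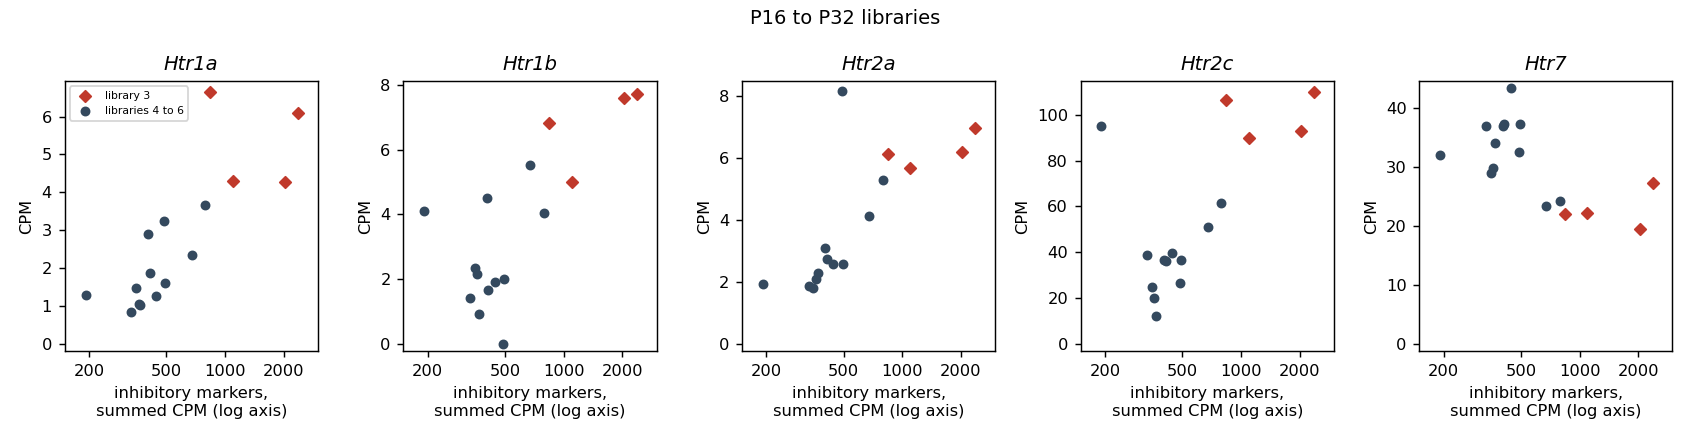
CPM of 5 receptor genes (linear axis) against the summed CPM of 8 inhibitory neuron markers (log axis) in the 16 libraries from P16 to P32. Red diamonds are library 3 of each age and dark circles are libraries 4 to 6. Library 3 lies at the right, high for Htr1a, Htr1b, Htr2a and Htr2c and low for Htr7.

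Levels after P16 are therefore also given without library 3. Over the other 3 libraries, Htr2c averaged 56.1 ± 33.9 CPM at P16, 49.8 ± 12.5 CPM at P20, 28.9 CPM at P27 and 25.3 ± 13.3 CPM at P32 (SD, n = 3 each), the 3 libraries at P27 holding 20.2 to 39.8 CPM. Htr1b averaged 3.43, 3.85, 1.36 and 1.57 CPM at these ages, and Htr1a 2.02, 2.54, 1.86 and 1.11 CPM. Htr2a averaged 2.59, 4.00, 4.28 and 1.99 CPM. The P27 means include library 6, which had the fewest genes with a read and held 0 CPM of Htr1b and 8.18 CPM of Htr2a. P27 libraries 4 and 5 held 2.17 and 1.91 CPM of Htr1b and 2.09 and 2.57 CPM of Htr2a. Per kilobase and without library 3, Htr2c averaged 11.8, 10.5, 6.09 and 5.32 CPM from P16 to P32 and Htr7 averaged 8.57, 6.85, 8.52 and 8.06 CPM, so the mean of Htr7 was the higher one at P27 and P32. The log2 fold change of Htr2c for P27 over P20 was -0.82 (SE 0.30) without library 3 of both ages, beside -0.34 (SE 0.48) with it. For P32 over P27, Htr2c had a log2 fold change of -0.03 with all libraries, 0.71 without P27 library 3 and -0.96 without P32 library 3, and Htr1a had -0.33, 0.39 and -1.47. The Htr1b log2 fold change for P16 over P10 was -2.43 without P16 library 3, beside -2.28 with all libraries, and Htr2c for P10 over P4 was 2.16 without P10 library 3, beside 2.51.

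The genes whose profiles were most like those of 5 of the serotonin genes were found by Pearson's r of log2(CPM + 0.5) over the 28 libraries, among 12423 genes. Libraries of an age share that age, so r is a description. Slc6a4 was most like Nwd2 (r = 0.96), Slc1a4, Fabp7, Fam212b and Pde1c. Nwd2, also listed above as a habenula marker, averaged 56.8, 98.8 and 108.5 CPM at E18, P4 and P10, and 17.6 CPM at P16. Fabp7, a fatty acid-binding protein of radial glia, averaged 52.2 CPM at P16 and 689 CPM at P4. Slc18a2 was most like Fam78b (r = 0.95), Smc2, P2rx2, Dclk1 and Prc1. Htr1b was most like Ago1 (r = 0.96), Ptprf, Scarb1, Gprin3 and Trpc7. Maob was most like Csrp1 (r = 0.97), Snap25, Efhd1, Omg and Syt11. Htr2c was most like St8sia6 (r = 0.92), Hipk4, Itsn2, Sstr3 and Hapln1, and its best r was the lowest of the 5 genes.

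A further 47 genes of the pathway were tested in edgeR's fits over all genes. This list was chosen with earlier results of these data known. Its counts in each comparison below are set beside those of all genes, and nothing is read about the pathway from them. At P4 against E18, 37 entered the fit, with a median log2 fold change of 0.18, beside -0.02 over all genes. At an unadjusted p under 0.05, 10 passed, as did 3953 of all 18797 genes tested. After adjustment 4 were higher and 0 lower, where 4.75% of all genes were higher and 3.12% lower. The 4 were Slc22a3, which encodes a low-affinity amine transporter, and 3 genes of receptor signalling. Slc22a3 averaged 6.81 ± 1.98 CPM at P4 and 2.14 ± 0.366 CPM at E18 (SD, n = 4 each; log2 fold change 1.65, SE 0.28, adjusted p = 0.00525 by edgeR). Adcy1, the calcium-stimulated adenylyl cyclase, had a log2 fold change of 1.35 (SE 0.22, edgeR adjusted p = 0.00418), Adcy8 of 1.39 (SE 0.24, edgeR adjusted p = 0.00523) and Rgs4, which shortens G protein signals, of 1.06 (SE 0.21, edgeR adjusted p = 0.012). All 4 had ranges that did not overlap and passed whichever 1 library was left out. In 1 fit of all 28 libraries Rgs4 did not pass (edgeR adjusted p = 0.249). None of the 7 other serotonin receptors, 6 synthesis genes or 3 breakdown genes tested passed. With the column number as a block, 13 were higher and 1 lower (Htr5b), where 2970 (15.8%) and 2558 of all 18797 genes were.

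At P10 against P4, 6 of 35 were higher and 7 lower, where 10.3% of all 17717 genes tested were higher and 8.16% lower. Their median log2 fold change was -0.19, beside -0.01 over all genes. Ddc, the decarboxylase that completes serotonin and dopamine synthesis, rose to 8.53 ± 1.03 CPM at P10, against 3.19 ± 0.883 CPM at P4 (SD, n = 4 each; log2 fold change 1.45, SE 0.25, edgeR adjusted p = 0.00234). Slc22a3 rose again, to 13.8 ± 4.79 CPM (log2 fold change 1.01, SE 0.29, edgeR adjusted p = 0.0332). Of the 18 signalling genes, 4 rose, the largest being Adcy8 (1.36) and the potassium channel subunit Kcnj9 (1.04), followed by Plcb4 (0.86) and Kcnj6 (0.67). Of the 5 other receptors tested, 2 fell. Htr5a averaged 14.6 ± 1.35 CPM at P10, against 22.9 ± 0.833 CPM at P4, a log2 fold change of -0.64 (SE 0.15, edgeR adjusted p = 0.0128). Htr4 was at 5.40 ± 1.23 CPM, against 9.15 ± 2.11 CPM, a log2 fold change of -0.75 (SE 0.24, edgeR adjusted p = 0.0496).

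The other 5 that fell were Aldh1b1 (-1.10), an aldehyde dehydrogenase, S100a10 (-1.20), which binds Htr1b and Htr4, and the G protein subunits Gnai3 (-0.76), Gnaq (-0.55) and Gnaz (-0.55). Leaving out 1 library ended some of the calls at P10 against P4. Htr4 was lost without 6 of the 8 libraries (all but P4 library 4 and P10 library 5; edgeR adjusted p 0.0731 to 0.14) and Htr5a without P10 library 6 (0.0526). Slc22a3 was lost without P4 library 5 or 6 or P10 library 4 or 6 (edgeR adjusted p 0.0651 to 0.0957). Gnaz was lost without P4 library 4 or 6 or P10 library 3, 5 or 6 (0.051 to 0.112), and Kcnj6 without P4 library 3, 4 or 6 or P10 library 4 or 6 (0.0579 to 0.0925). Without P10 library 6 the counts were 4 higher and 4 lower. With the column number as a block they were 7 higher and 12 lower, where 18% of all genes were higher and 18.1% lower. A single fit of all 28 libraries also lost Htr4, Slc22a3, Gnaz, Plcb4 and Kcnj6 (edgeR adjusted p 0.0592 to 0.35). Total-count scaling lost Htr4 and Kcnj6 (0.0587 and 0.0656), and testing without a filter lost Htr4 (0.0585).

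At P16 against P10, 8 of 35 were higher and 2 lower, where 6.2% of all 17474 genes tested were higher and 5.65% lower. Their median log2 fold change was -0.14, beside 0.01 over all genes. Ddc rose further, to 19.4 ± 3.95 CPM at P16, against 8.53 ± 1.03 CPM at P10 (log2 fold change 1.17, SE 0.21, edgeR adjusted p = 0.00281). Qdpr, which regenerates the cofactor of tryptophan hydroxylase, was at 79.8 ± 18.7 CPM, against 38.1 ± 4.06 CPM (log2 fold change 1.06, SE 0.19, edgeR adjusted p = 0.00281). Qdpr averaged 279 CPM by P32. The hydroxylase genes Tph1 and Tph2 averaged 0.463 and 0.258 CPM at P16. The oligodendrocyte markers were also higher at P16, as given above. The part of the cell mixture in the levels of the pathway genes was not tested at any age. The sulfotransferase gene Sult1a1 also rose (1.40), as did the signalling genes Rgs4 (1.69), Kcnj3 (1.54), Kcnj9 (1.29), Plcb4 (1.11) and Plcb1 (0.58). Rgs4 was 1.10 without P16 library 5.

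Slc29a4, a second low-affinity transporter of serotonin and other amines, fell to 7.13 ± 2.92 CPM at P16, against 16.8 ± 6.17 CPM at P10 (SD, n = 4 each; log2 fold change -1.24, SE 0.33, edgeR adjusted p = 0.0276). It averaged 31.2 CPM at P4 and 34.8 CPM at E18. Per kilobase it was above Slc6a4 at P16 (2.46 CPM, beside 0.0598 CPM for Slc6a4) and below it at P4 (10.8 CPM, beside 12.9 CPM). S100a10 fell to 4.75 ± 0.721 CPM, against 16.3 ± 3.15 CPM (-1.79, SE 0.23, edgeR adjusted p = 0.000351). Calls of Slc29a4 ended without P10 library 4 or 5 or P16 library 4, 5 or 6 (edgeR adjusted p 0.0514 to 0.0866). Sult1a1 was lost without P10 library 6 (0.0601). Plcb1 was lost without any library but P16 library 4 (0.0619 to 0.104), Plcb4 without P10 library 3 or 6 or P16 library 5 or 6 (0.0565 to 0.0719) and Kcnj9 without P10 library 3 or 6 or P16 library 5 (0.0502 to 0.0515). Without P10 library 6 there were 4 higher and without P16 library 6 there were 4 lower, and without P10 library 4 or P16 library 5 only 1 was lower. Without P10 library 3 or P16 library 5, 5 were higher. A single fit of all 28 libraries lost Slc29a4, Sult1a1 and Plcb1 (edgeR adjusted p 0.0639 to 0.093), and Plcb1 was also lost with total-count scaling (0.146) and without a filter (0.0562).

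None of 36 was called in any later comparison by edgeR, and 1 (Spr, at P20), 1 (Qdpr, at P27) and 0 passed at an unadjusted p under 0.05. Of all genes, 485 of 17949, 476 of 18070 and 73 of 17856 did. DESeq2 called Qdpr higher at P27 than at P20. Most of the other serotonin receptors were scarce throughout. Htr1d, Htr1f, Htr3a, Htr3b and Htr6 averaged under 2 CPM at every age at which they had counts. Htr2b averaged 9.63 CPM at P32 and 6.13 CPM at E18, without a call at any step. Htr4 was highest in library 3 at each of the 4 late ages, at 6.46 to 12.4 CPM, against 1.33 to 4.67 CPM in the other 12. Of the other plasma membrane transporters, Slc6a2 and Slc6a3, those of noradrenaline and dopamine, averaged at most 0.196 and 0.563 CPM at any age.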

How the data were processed

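Gene-level read counts were deposited by the authors in 12 tables, a pair (genes up, genes down) for each of 6 comparisons of adjacent ages. They are whole numbers, not changed here except for joining the tables by gene ID. The authors' own fold change (a ratio of the ages), p-value and FDR in the deposited tables were not used. The submitters' processing notes name GRCm38 (mm10), BWA and edgeR 3.14.0, and sequencing on a NextSeq 500 after depletion of ribosomal RNA is given by the labels' protocols. No source used here gives the read counter, the annotation or whether strand was used, so reads of overlapping and antisense genes cannot be told apart. The authors also deposited a mean abundance signal per gene and 96 columns of per-sample read density, which were left aside. Coordinates are those of the deposited tables.

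Each pair of ages was fitted on its 8 libraries with edgeR 4.0.16 (R 4.3.3): filterByExpr, TMM scaling and the two-sided quasi-likelihood F test, with Benjamini-Hochberg adjustment over all genes tested and a threshold of 0.05. Levels are CPM with all 28 libraries TMM-scaled together. The SE of a log2 fold change is its size divided by the square root of F. Fold changes are later over earlier age. A count of 3 set the floor, which covers counting error only. Libraries carry column numbers 3 to 6, which could not be matched to the labels' replicate numbers, and p-values measure the spread between libraries.

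The members, the lists and the rule for named genes were chosen with earlier results of these data known. The rule named all 9 serotonin genes and, of 47 further pathway genes, those called, up to 4 a list and comparison, with Tph1, Tph2 and Ddc. The other called genes are named to complete counts. Libraries of the same column number deviated together at P4 against E18 (r 0.52 to 0.83 over 4 pairs) and at P10 against P4 (0.30 to 0.72). The number was therefore taken as pairing these libraries, and fits with it as a block stand beside those counts. DESeq2 1.42.0, other scalings, no filter, 1 fit of all 28 libraries and leaving out each library were tried as alternatives. A fit without library 3 of both ages was added after the data were seen.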

Additional observations from a re-analysis of the deposited data

Results flagged for a closer look

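Within an age of 4 libraries, 11 of 203 gene and age combinations examined had 1 library far from the other 3, with a gap, as a share of the range, above Dixon's critical value. Chance gives about 1 in 20. For the 9 serotonin genes, 5 of 63 were found.

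Slc6a4 was at 0.0618 CPM in P32 library 4 and at 0 in the other 3 P32 libraries, which is a single read. Htr2c was at 103.0 CPM in P10 library 3, against 47.5 to 50.7 CPM in the others, and Htr7 in the same library was at 23.3 CPM, against 39.1 to 41.7 CPM.

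P32 library 3 stood apart for Htr1a (6.10 CPM, against 0.828 to 1.48 CPM), Htr2a (6.98 CPM, against 1.79 to 2.30 CPM), Htr4 (12.4 CPM, against 1.33 to 2.90 CPM) and Adcy1 (581 CPM, against 969 to 1036 CPM). P27 library 3 stood apart for Gnaz, at 43.9 CPM, against 57.9 to 59.4 CPM. In P32 and P27 library 3 the inhibitory neuron markers summed to 2373 and 840 CPM, the highest of each age, and their part in these values was not tested.

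E18 library 4 held 5.59 CPM of Ddc, and the other E18 libraries held 2.63 to 3.13 CPM. Gnaq was at 287 CPM in P4 library 4, against 321 to 323 CPM. Rgs4 was at 525 CPM in P20 library 5, against 165 to 190 CPM.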

How the results depend on the processing

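For the 7 log2 fold changes of serotonin genes that had passed the threshold, all 98 alternatives kept the direction and 83 kept the call. The 15 losses, for 3 of the 7, each came from leaving out 1 library. Of 640 alternatives for the other 44 log2 fold changes, 72 changed sign. The 7 were taken because they had passed, and the alternatives refit mostly the same libraries, so nothing is read from this agreement. Of 378 alternatives for called pathway genes, 323 kept the call and 55, for 12 results, lost it with the same direction. With the column number as a replicate block, genes higher and lower of all tested were 2970 and 2558 at P4 against E18 (893 and 586 without the block), 3196 and 3212 at P10 against P4 (1821 and 1446), and 1725 and 1674 at P16 against P10 (1084 and 987). The block gave 13 and 1 pathway genes higher and lower at P4 (4 and 0 without it), 12 lower at P10 (7) and 6 lower at P16 (2), and 1 gene of all higher at P20. At P16 against P10, 3 of 4 same-numbered pairs correlated above 0.1 and 3 of 4 libraries correlated best with their own number, a hint from the data and not the design. There the block also put Maob higher. Again 3 of 4 same-numbered pairs correlated above 0.1 at P20 against P16 (r -0.21 to 0.71), P27 against P20 (-0.32 to 0.67) and P32 against P27 (-0.08 to 0.63). Late libraries of the same number may therefore not be independent between ages.

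DESeq2 gave 965 genes lower at P4, 5 higher and 2 lower at P27, and, of the pathway genes, 1 lower at P4, 5 lower at P16 and 1 higher at P27. Total-count scaling gave 1 pathway gene lower at P4, 5 lower at P16 and 1 gene of all higher at P27, and moved the median log2 fold change of all genes at P4 to -0.12. A single fit of all 28 libraries gave 355 genes lower at P4, 3 pathway genes higher at P10 and 1 gene higher at P27. Without a filter, 1 gene was higher at P27. The cause of these differences was not tested.

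Leaving out 1 library gave 405 to 860 genes higher and 355 to 568 lower at P4, 1260 to 1783 and 819 to 1404 at P10, and 686 to 1329 and 588 to 1180 at P16. At P27 it gave 0 to 1 higher. Pathway genes numbered 4 to 4 higher and 0 to 1 lower at P4, 4 to 6 and 4 to 7 at P10, and 4 to 8 and 1 to 4 at P16. Without library 3 of both ages no gene was called from P20 on. For Slc6a4, depth allows no comparison after P16.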
